A study of Mus musculus with 8 samples.

Results

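Transcripts of 7 genes of the primary granules of myeloid cells were followed in single cells of the mouse yolk sac: Mpo, Prtn3, Elane, Ctsg, Ms4a3, Lyz1 and Lyz2. The genes were chosen by name, and 6 of the 7 were measured among 23091 genes listed. Lyz2 was not analysed here. Libraries of A1 and A2 cells (A1/A2, n = 4) were set against libraries of erythromyeloid progenitors (EMP, n = 4). Both groups came from untreated, wild-type C57BL/6N embryos at E9.5 and from the same tissue, the extraembryonic yolk sac. Cells were stained with antibodies to CD45 and CD11b and sorted by CD45 into the wells of plates. A1 cells are known as an early Kit-bearing stage and A2 cells as the Cx3cr1-bearing macrophage precursors that follow it. The 2 kinds shared each A1/A2 library and carried no label per well, so transcripts of Kit and Cx3cr1 stood in for them. The labels say that the EMP libraries were run alongside and were not part of the published work. They do not say which embryos gave which library, so a p-value here measures only the spread between libraries.

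Primary (azurophil) granules are made at the promyelocyte stage, before the specific granules that appear later in neutrophil development. Myeloperoxidase turns hydrogen peroxide into hypochlorous acid, the serine proteases proteinase 3, neutrophil elastase and cathepsin G digest bacteria and matrix, and lysozyme cleaves bacterial cell walls. In adult bone marrow these genes mark the granulocyte and monocyte progenitor, and lysozyme is also made by monocytes and macrophages.

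The protease genes Prtn3 and Elane lie next to each other on chromosome 10, and Lyz1 lies next to Lyz2 on the same chromosome. Windows of 300 bases around the gene starts (250 before to 50 after, RefSeq, build GRCm38.p6) are shown for Prtn3, the most abundant of the granule proteases here, for Elane, its neighbour that was almost not detected, for Mpo and for Lyz1. Each is written 5′ to 3′ on the strand of its gene. Capitals mark GAGGAA, the core of PU.1 sites, and AACGG, the core of MYB sites, both searched on both strands, so that a match on the other strand reads TTCCTC or CCGTT.
Prtn3 (chr10:79879417-79879716, + strand): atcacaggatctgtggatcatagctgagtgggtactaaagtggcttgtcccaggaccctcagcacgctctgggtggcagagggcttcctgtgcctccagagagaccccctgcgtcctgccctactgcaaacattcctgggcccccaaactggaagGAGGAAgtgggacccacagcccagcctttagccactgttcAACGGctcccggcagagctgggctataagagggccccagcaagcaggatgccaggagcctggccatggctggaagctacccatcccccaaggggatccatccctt
Elane (chr10:79886062-79886361, + strand): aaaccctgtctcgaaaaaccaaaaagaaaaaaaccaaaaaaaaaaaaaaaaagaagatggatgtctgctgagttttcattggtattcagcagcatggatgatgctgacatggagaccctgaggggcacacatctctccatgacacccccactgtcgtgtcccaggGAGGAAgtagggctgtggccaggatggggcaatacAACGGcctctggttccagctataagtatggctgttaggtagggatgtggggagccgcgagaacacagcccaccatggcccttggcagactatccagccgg
Mpo (chr11:87793534-87793833, + strand): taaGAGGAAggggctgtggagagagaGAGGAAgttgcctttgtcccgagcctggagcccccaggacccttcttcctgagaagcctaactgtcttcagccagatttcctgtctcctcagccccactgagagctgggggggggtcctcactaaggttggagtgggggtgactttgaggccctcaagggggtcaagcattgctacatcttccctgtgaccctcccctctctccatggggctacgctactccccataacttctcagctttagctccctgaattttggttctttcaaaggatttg
Lyz1 (chr10:117292819-117293118, - strand): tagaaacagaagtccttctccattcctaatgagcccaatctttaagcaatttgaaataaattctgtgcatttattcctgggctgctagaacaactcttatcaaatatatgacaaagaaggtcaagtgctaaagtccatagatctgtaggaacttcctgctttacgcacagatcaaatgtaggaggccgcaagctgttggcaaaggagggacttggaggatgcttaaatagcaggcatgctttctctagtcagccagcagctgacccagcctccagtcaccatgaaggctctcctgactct
Prtn3 and Elane had the same arrangement, a GAGGAA beginning 95 bases before the start of Prtn3 and 85 bases before that of Elane, with an AACGG beginning 55 and 50 bases before the start. Mpo held GAGGAA at 2 places, beginning 247 and 224 bases before its start, and no AACGG. Lyz1 held neither motif. The windows of Ctsg and Ms4a3 held 1 GAGGAA each and no AACGG. Among all 32851 windows of this length, 28.3% held GAGGAA and 17.4% held AACGG, so a match alone is common.

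Wells with at least 1000 transcripts were kept, 568 in the A1/A2 libraries (127 to 166 a library) and 655 in the EMP libraries (147 to 177). The kept wells of a library summed to 2558197 to 3559612 transcripts in A1/A2 and to 3888853 to 5418136 in EMP. The median kept well held 6153 transcripts in A1/A2 and 20369 in EMP. No well of one library repeated a profile of another (0 over 28 pairs of libraries). A macrophage marker list of 8 genes summed to 727 to 1001 CPM (counts scaled to 1000000 per library) in A1/A2 libraries and 45.1 to 79.8 in EMP libraries, and a list of 4 monocyte markers to 62.1 to 112 CPM in A1/A2 and 4.99 to 8.23 in EMP. A progenitor list of 5 genes summed to 78.7 to 162 CPM in A1/A2 and 137 to 283 in EMP. Endoderm markers, which a CD45 sort should leave out, summed to 6473 to 11608 CPM in A1/A2 and 11285 to 17350 in EMP. The neutrophil list of 8 genes summed to 111 to 273 CPM in A1/A2 and 36.0 to 52.2 in EMP, and the specific granule genes Camp and Ngp were at 0 in both. Levels without wells of such markers are given with the results below.

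The granule genes split into 3 that were found in every library and 3 that were almost not found. Prtn3, Lyz1 and Mpo were all higher in A1/A2 libraries than in EMP libraries. Elane, Ctsg and Ms4a3 were each seen in a handful of transcripts over all kept wells. One 3′ tag is counted per transcript in this assay, so counts can be set side by side between genes without a length correction.

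Prtn3, which encodes proteinase 3, gave 442, 288, 308 and 422 transcripts in A1/A2 libraries 1 to 4, against 120, 90, 178 and 132 in EMP libraries 1 to 4. Every A1/A2 library was above every EMP library although fewer transcripts were read there. Lyz1, the gene of the P lysozyme known from Paneth cells of the gut, gave 302, 261, 829 and 357 transcripts in A1/A2 libraries, against 94, 56, 105 and 93 in EMP libraries. A1/A2 library 3 stood highest and the groups did not overlap. Mpo, the myeloperoxidase gene, gave 134, 89, 165 and 114 transcripts in A1/A2 libraries, against 86, 80, 118 and 62 in EMP libraries. Its raw counts overlapped between the groups.

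Elane, the elastase gene, gave 1, 0, 1 and 2 transcripts in A1/A2 libraries, against 1, 2, 3 and 0 in EMP libraries. These 4 and 6 transcripts correspond to a ratio of 1.06 per transcript read, with a 95% counting interval of 0.22 to 4.46. They came from 4 of 568 A1/A2 wells (0.704%, exact interval 0.192 to 1.79%) and 5 of 655 EMP wells (0.763%, 0.248 to 1.77%). Ctsg, the cathepsin G gene, was found in 2 A1/A2 wells with 2 transcripts each (0.352% of wells, 0.0430 to 1.27%) and in 0 of 655 EMP wells, which allows a share of up to 0.458%. For these 4 against 0 transcripts, taken as independent, the 95% counting interval of the ratio per transcript read starts at 1.05 and has no upper limit. They came from only 2 wells, in A1/A2 libraries 1 and 3, so that interval is too narrow and shows no difference between the groups. Ms4a3, a membrane protein gene that marks granulocyte and monocyte progenitors, was found in 0 of 568 A1/A2 wells, which allows up to 0.528%, and in 3 of 655 EMP wells (0.458%, 0.0945 to 1.33%). Intervals and floors cover counting error only. Prtn3 thus had 1460 transcripts in A1/A2 wells and 520 in EMP wells where its neighbour Elane had 4 in A1/A2 and 6 in EMP.

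**Figure D1:**
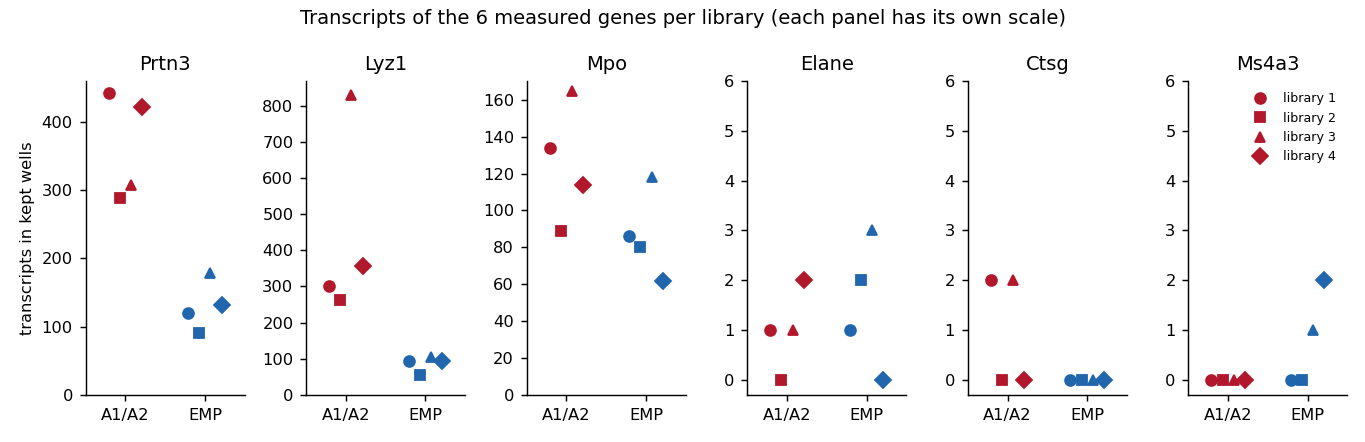
Transcripts of the 6 measured genes in kept wells (vertical axis, a scale per panel), 1 point per library, A1/A2 left of EMP. Prtn3, Lyz1 and Mpo lie at 56 to 829 transcripts a library, and Elane, Ctsg and Ms4a3 at 0 to 3.

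Levels were compared as CPM of the library sums with edgeR's quasi-likelihood test and Benjamini-Hochberg adjustment over 11144 genes. Of these, 32.8% passed an adjusted p of 0.05, 17.3% as higher and 15.4% as lower in A1/A2. Prtn3, Lyz1 and Mpo passed the filter on low counts and the other 3 members did not. In such sums, more cells of a type and more RNA per cell cannot be told apart. How many of all genes had counts or levels without overlap was not counted. Lack of overlap in counts or levels, between groups or between classes of wells, is thus a description only.

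Prtn3 was at 174, 80.1, 113 and 121 CPM in A1/A2 libraries, against 25.2, 17.5, 33.4 and 33.1 CPM in EMP libraries. The groups did not overlap, with means of 122 ± 39.0 in A1/A2 and 27.3 ± 7.57 in EMP (SD, n = 4 each). The log2 fold change was 2.16 ± 0.26 (SE), with an adjusted p of 0.00032. Lyz1 was at 118, 72.3, 305 and 102 CPM in A1/A2 libraries, against 19.8, 10.9, 19.7 and 23.3 CPM in EMP libraries. It averaged 149 ± 105 CPM in A1/A2 and 18.4 ± 5.30 in EMP, and its log2 fold change of 3.02 ± 0.51 (adjusted p 0.0041) was the largest of the 3. Without A1/A2 library 3 the log2 fold change was 2.41 ± 0.24 (adjusted p 0.00012). Mpo was at 52.7, 24.7, 60.9 and 32.6 CPM in A1/A2 libraries, against 18.1, 15.5, 22.2 and 15.5 CPM in EMP libraries. Its groups also did not overlap once scaled, though A1/A2 library 2 lay close above EMP library 3. It averaged 42.7 ± 16.9 CPM in A1/A2 and 17.8 ± 3.12 in EMP, with a log2 fold change of 1.24 ± 0.26 (adjusted p 0.0057). Without wells holding 1% or more endoderm marker transcripts, called endoderm-rich below, Mpo's log2 fold change was 0.64 ± 0.22 (adjusted p 0.045). Under the same setting Prtn3 was at 1.50 ± 0.14 and Lyz1 at 2.56 ± 0.49. Without wells holding the neutrophil genes S100a8 or S100a9, Prtn3 was at 2.17 ± 0.30, Lyz1 at 3.38 ± 0.66 and Mpo at 1.20 ± 0.25. Without wells holding the monocyte genes Ly6c2 or Ccr2, an exclusion chosen after seeing the data, Prtn3 was at 2.14 ± 0.40 (adjusted p 0.0064), Lyz1 at 2.79 ± 0.64 (adjusted p 0.021) and Mpo at 1.05 ± 0.34 (adjusted p 0.044).

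The counts of Lyz1 carry a further limit. Over their last 300 bases, where 3′ tags fall, the longest coding transcripts of Lyz1 and Lyz2 (GENCODE M21) were 95.3% identical, and over the last 100 bases 90.0%. How reads shared by both were assigned was not stated in the labels or headers, so a Lyz1 count may hold tags of its neighbour or lack its own.

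**Figure D2:**
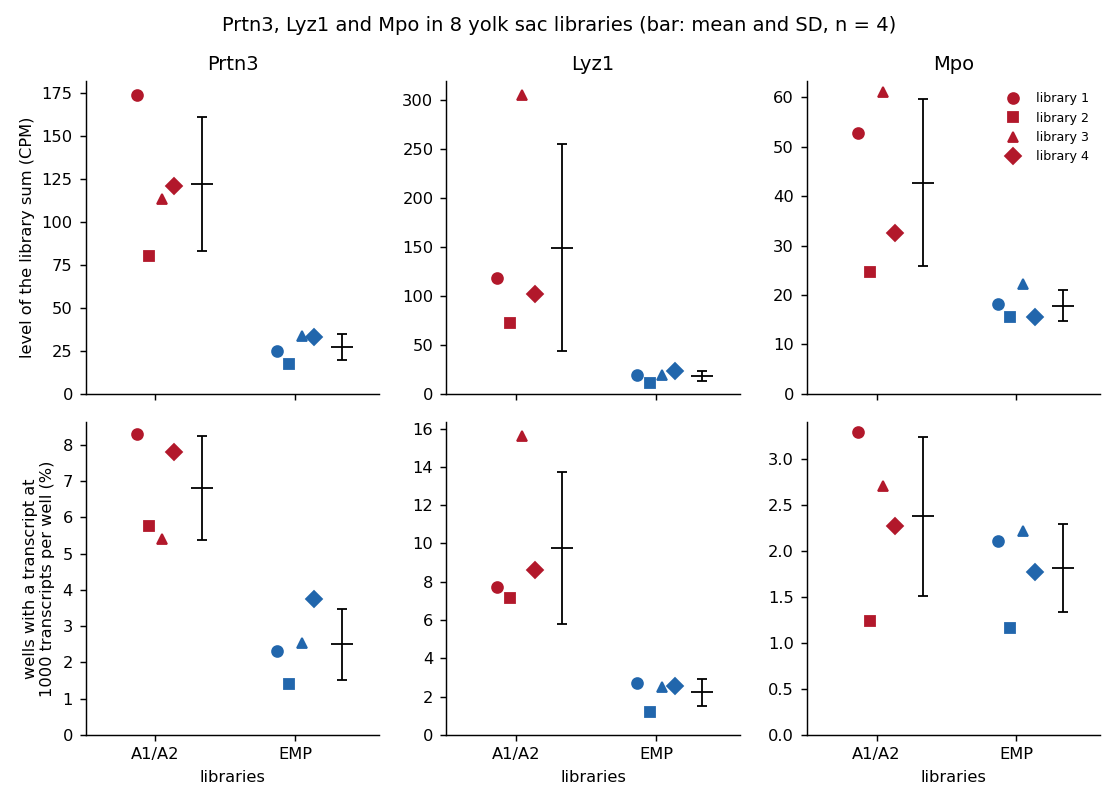
Levels of the library sums in CPM (top row) and the share of wells with a transcript when every well is thinned to 1000 transcripts (bottom row, percent) for Prtn3, Lyz1 and Mpo, 1 point per library, with mean and SD bars (n = 4). The A1/A2 points lie above the EMP points in every panel except the shares of Mpo, which overlap.

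The share of wells with a transcript depends on depth, so it was taken at 1000 transcripts in every well. Prtn3 was then expected in 8.29, 5.77, 5.40 and 7.80% of wells in A1/A2 libraries, against 2.30, 1.39, 2.54 and 3.75% in EMP libraries. Lyz1 was expected in 7.71, 7.13, 15.6 and 8.59% of A1/A2 wells, against 2.69, 1.18, 2.49 and 2.54% of EMP wells. For both genes all A1/A2 libraries lay above all EMP libraries, as they did for 7.89% of 8516 genes. The two-sided exact permutation p was 0.0286 for each, the smallest that 4 libraries against 4 allow, and 0.177 after adjustment over all genes. No gene passed that adjustment (0 of 8516 by the exact test, with 1373 at an unadjusted p below 0.05). Mpo was expected in 3.29, 1.24, 2.70 and 2.27% of A1/A2 wells, against 2.11, 1.16, 2.21 and 1.77% of EMP wells. These shares overlapped, with means of 2.37 ± 0.87% in A1/A2 and 1.81 ± 0.48% in EMP (exact permutation p = 0.257, adjusted 0.527).

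At 5000 transcripts a well, Mpo was expected in 11.4 ± 1.98% of A1/A2 wells and 6.89 ± 1.53% of EMP wells (SD, n = 4 each). Prtn3 was expected in 25.2 ± 4.95% of A1/A2 wells and 9.66 ± 2.71% of EMP wells, and Lyz1 in 22.7 ± 8.48% of A1/A2 wells and 9.72 ± 2.81% of EMP wells. At this depth too the libraries of the groups did not overlap for Prtn3 and Lyz1, with all A1/A2 libraries above, as for 9.81% of 12238 genes, and overlapped for Mpo. Without thinning, 21.5% of A1/A2 wells and 19.5% of EMP wells held an Mpo transcript. Prtn3 was in 33.8% of A1/A2 wells and 23.4% of EMP wells, and Lyz1 in 37.1% of A1/A2 wells and 25.8% of EMP wells. Free RNA can put a transcript in a well whose cell does not make it. Background wells were the endoderm-rich wells without a transcript of Ptprc, the CD45 gene, 135 in A1/A2 and 286 in EMP. Granule genes should be silent in endoderm cells, but this class was not shown to hold only those. It took in the wells with the most Lyz1 of EMP libraries 1 and 3, with 7 Lyz1 transcripts each and 5 and 16 of Kit. Its values are therefore no clean measure of free RNA. In background wells the shares at 1000 transcripts were 1.34% for Mpo, 3.31% for Prtn3 and 3.89% for Lyz1 in A1/A2. In EMP they were 0.242% for Mpo, 1.04% for Prtn3 and 0.417% for Lyz1. The median depths of those wells were 4181 transcripts in A1/A2 and 27602 in EMP. The mean shares of all 3 genes stood above that background in both groups, though Mpo in A1/A2 library 2 did not. Partner genes used below were found in such wells too, Kit in 7.41% and Cx3cr1 in 14.8% of the endoderm-rich A1/A2 wells, and Kit in 23.8% of the EMP ones. Ly6c2 was in 18 of the 135 A1/A2 background wells, against 74 of all 568 kept A1/A2 wells, and S100a8 in 8 against 44. Per transcript read, Ly6c2 was at 9.07 CPM in background and 24.4 CPM in all kept A1/A2 wells. S100a8 was at 28.6 CPM in background and 20.8 CPM in all. The part of free RNA in the splits by Ly6c2 and S100a8 was not tested. Elane was in 1 background well of each group (0.741% in A1/A2, 0.350% in EMP).

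Wells were next sorted by a transcript of Kit, the stem cell factor receptor, of Cx3cr1, the fractalkine receptor of macrophage precursors, of Ly6c2, a surface antigen of inflammatory monocytes, or of S100a8, an alarmin of neutrophils. Of 73 A1/A2 wells with Kit, 34 also held Mpo, 43 Prtn3 and 40 Lyz1. Of 196 A1/A2 wells with Cx3cr1, 93 held Mpo, 128 Prtn3 and 127 Lyz1. Of 74 with Ly6c2, 31 held Mpo, 36 Prtn3 and 40 Lyz1, and of 44 with S100a8, 15 held Mpo, 16 Prtn3 and 21 Lyz1. In the EMP libraries 270 wells held Kit, and of these 104 held Mpo, 124 Prtn3 and 138 Lyz1. Only 31 EMP wells held Cx3cr1, of which 11 held Mpo, 16 Prtn3 and 19 Lyz1. Ly6c2 was in 7 EMP wells and S100a8 in 5, too few for a comparison. Wells with Kit or Cx3cr1 were deeper than those without. Median totals per A1/A2 library were 32902 to 47045 with Cx3cr1 against 2450 to 4313 without it, and 34482 to 58662 with Kit against 3382 to 6474 without it. In EMP libraries they were 23858 to 34827 with Kit against 6153 to 17923 without it.

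In EMP libraries, Mpo, Prtn3 and Lyz1 were all concentrated in wells with Kit. Sums of wells with and without the partner were compared within libraries, with library as a block. Mpo was at 25.6, 28.6, 29.7 and 20.8 CPM in EMP wells with Kit of libraries 1 to 4, against 4.77, 2.16, 4.66 and 1.67 CPM in wells without Kit. Each library showed the higher level in its Kit wells and the 2 classes did not overlap. Its log2 fold change was 2.99 ± 0.24 (edgeR quasi-likelihood test, adjusted p 3.4e-09), where 42.3% of 10935 genes passed and 20.4% as higher. Prtn3 was at 37.3, 30.9, 44.1 and 40.9 CPM with Kit, against 4.24, 3.60, 8.73 and 11.7 CPM without it, with no overlap and a log2 fold change of 2.55 ± 0.20 (adjusted p 2.3e-09). Lyz1 was at 26.6, 16.6, 25.9 and 30.2 CPM with Kit, against 7.41, 4.68, 5.24 and 5.01 CPM without it, again with no overlap (log2 fold change 2.08 ± 0.21, adjusted p 7.2e-08). Endoderm markers summed to 8512 to 14669 CPM with Kit and 14831 to 19563 without it. Without endoderm-rich wells Mpo stood at 2.30 ± 0.39, Prtn3 at 1.97 ± 0.34 and Lyz1 at 0.57 ± 0.32 with its call lost (adjusted p 0.299).

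At equal depth the order in EMP wells stayed in the mean over draws. Averaged over all draws of 5000 transcripts per well, Mpo was at 41.6 ± 11.1 CPM with Kit and 14.3 ± 6.58 without it (SD, n = 4). Prtn3 was at 58.2 ± 14.6 CPM with Kit and 19.7 ± 6.44 without it, and Lyz1 at 48.1 ± 12.7 CPM with Kit and 15.2 ± 4.17 without it. Each was higher with Kit in 4 of 4 libraries. A single random draw left few counts to test. There Lyz1 kept its call (1.68 ± 0.46, adjusted p 0.0060), Prtn3 was at 0.92 ± 0.42 (adjusted p 0.112), and Mpo was at -0.25 ± 0.63 (adjusted p 0.827), the other way from its mean over all draws. The 12 EMP wells with the most Mpo transcripts, 3 from each library, held 6 to 25 of them, and 12 of 12 held Kit. They were ranked by raw counts and were deep, at totals of 23511 to 283122 against a median of 20369 over kept EMP wells. Finding Kit also depends on depth.

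In A1/A2 libraries the same split by Kit gave no call for any member. Mpo was at 109, 11.6, 133 and 48.1 CPM in A1/A2 wells with Kit of libraries 1 to 4, against 30.9, 29.7, 30.2 and 26.8 CPM in wells without Kit. The level with Kit was above that without it in libraries 1, 3 and 4 and below it in library 2. The log2 fold change of 1.14 ± 0.64 had an adjusted p of 0.757, where 0.512% of 9970 genes passed in either direction. Of the 4 fits that each left out 1 library, only that without library 2 passed (1.63, adjusted p 6.1e-05). In the others the adjusted p of the edgeR test reached 0.927. Leaving out the 1 library that went the other way cannot test the direction. Prtn3 was at 312, 46.3, 223 and 146 CPM with Kit, against 122, 93.5, 68.9 and 115 CPM without it, also lower with Kit in library 2 alone (0.71 ± 0.55, adjusted p 0.83). Lyz1 was at 153, 45.1, 172 and 62.3 CPM with Kit, against 107, 83.4, 385 and 124 CPM without it, and only library 1 was higher with Kit. Its log2 fold change was -0.64 ± 0.37 (adjusted p 0.759). Among the fits that left out 1 library, only that without library 1, which went the other way, passed (-1.04, adjusted p 0.0015). In the mean over draws at equal depth, Lyz1 was at 2041, 30.2, 1449 and 61.0 CPM with Kit in libraries 1 to 4. Without Kit it was at 195, 112, 947 and 103 CPM, so libraries 1 and 3 were higher with Kit. Mpo and Prtn3 were each higher with Kit in 3 of 4 libraries there. Only 3.37 to 5.01 wells a library were expected to hold Kit, and these values carry no test.

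The 2 Kit contrasts were set against each other in one fit over the 8 libraries, in which 8.62% of 11247 genes passed and 5.22% as lower. For Lyz1 the Kit contrast of A1/A2 libraries minus that of EMP libraries was -2.71 ± 0.55 on the log2 scale (edgeR quasi-likelihood test, adjusted p 0.027). The call was lost when any 1 of 6 of the 8 libraries was left out, A1/A2 library 2 or 4 or any EMP library, with adjusted p between 0.0555 and 0.0880, and also without endoderm-rich wells (-1.45, adjusted p 0.436). Mpo differed by -1.81 ± 0.90 (adjusted p 0.303) and Prtn3 by -1.80 ± 0.82 (adjusted p 0.265). Of the 8 fits that each left out 1 library, only that without A1/A2 library 2 passed for Mpo (-1.34, adjusted p 0.018).

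In A1/A2 libraries Mpo and Prtn3 were higher in wells with Cx3cr1, while Lyz1 gave no call. Mpo was at 60.5, 32.4, 69.3 and 36.6 CPM in wells with Cx3cr1 of libraries 1 to 4, against 13.5, 9.67, 42.7 and 16.3 CPM in wells without it. It was higher with Cx3cr1 in 4 of 4 libraries, by a log2 fold change of 1.26 ± 0.21 (edgeR quasi-likelihood test, adjusted p 0.00013), where 34.8% of 10090 genes passed and 16.1% as higher. Prtn3 was at 198, 87.9, 152 and 130 CPM with Cx3cr1, against 52.1, 61.0, 40.7 and 80.5 CPM without it. It too was higher in 4 of 4 libraries and the classes did not overlap (1.17 ± 0.28, adjusted p 0.026). Lyz1 was at 88.6, 48.6, 164 and 119 CPM with Cx3cr1, against 224, 109, 537 and 37.3 CPM without it. Libraries 1 to 3 were lower and library 4 higher with Cx3cr1 (-0.86 ± 0.67, adjusted p 0.422). Among the fits that left out 1 library, only that without library 4, which went the other way, passed (-1.44, adjusted p 9.4e-08).

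Depth and other cells moved with the Cx3cr1 split. Macrophage markers, a list that holds Cx3cr1 itself, summed to 1072 to 1170 CPM with Cx3cr1 and 168 to 479 without it, and erythroid markers to 111 to 1641 CPM with Cx3cr1 and 1362 to 12928 without it. Endothelial markers summed to 6.49 to 11.5 CPM with Cx3cr1 and 22.7 to 48.7 without it. Endoderm markers summed to 5006 to 9741 CPM with Cx3cr1 and 11016 to 14491 without it, and the neutrophil list to 101 to 216 CPM with Cx3cr1 and 65.7 to 360 without it. The part of the macrophage, erythroid and endothelial markers in the split was not tested. Without endoderm-rich wells Mpo was at 0.51 ± 0.26 (adjusted p 0.219) and Prtn3 at 0.22 ± 0.22 (adjusted p 0.60), and without wells holding S100a8 or S100a9 Mpo was at 0.84 ± 0.36 (adjusted p 0.130) and Prtn3 at 0.75 ± 0.21 (adjusted p 0.026). The part of depth in the split was looked at with the mean over all draws of 5000 transcripts. Mpo was then at 44.5 ± 1.80 CPM with Cx3cr1 and 27.2 ± 9.37 without it, and Prtn3 at 133 ± 35.2 CPM with Cx3cr1 and 73.0 ± 14.7 without it (SD, n = 4), both higher with Cx3cr1 in 4 of 4 libraries. In a single draw neither passed the test (Mpo 0.45 ± 0.61, adjusted p 0.753, Prtn3 0.35 ± 0.30, adjusted p 0.565).

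**Figure D3:**
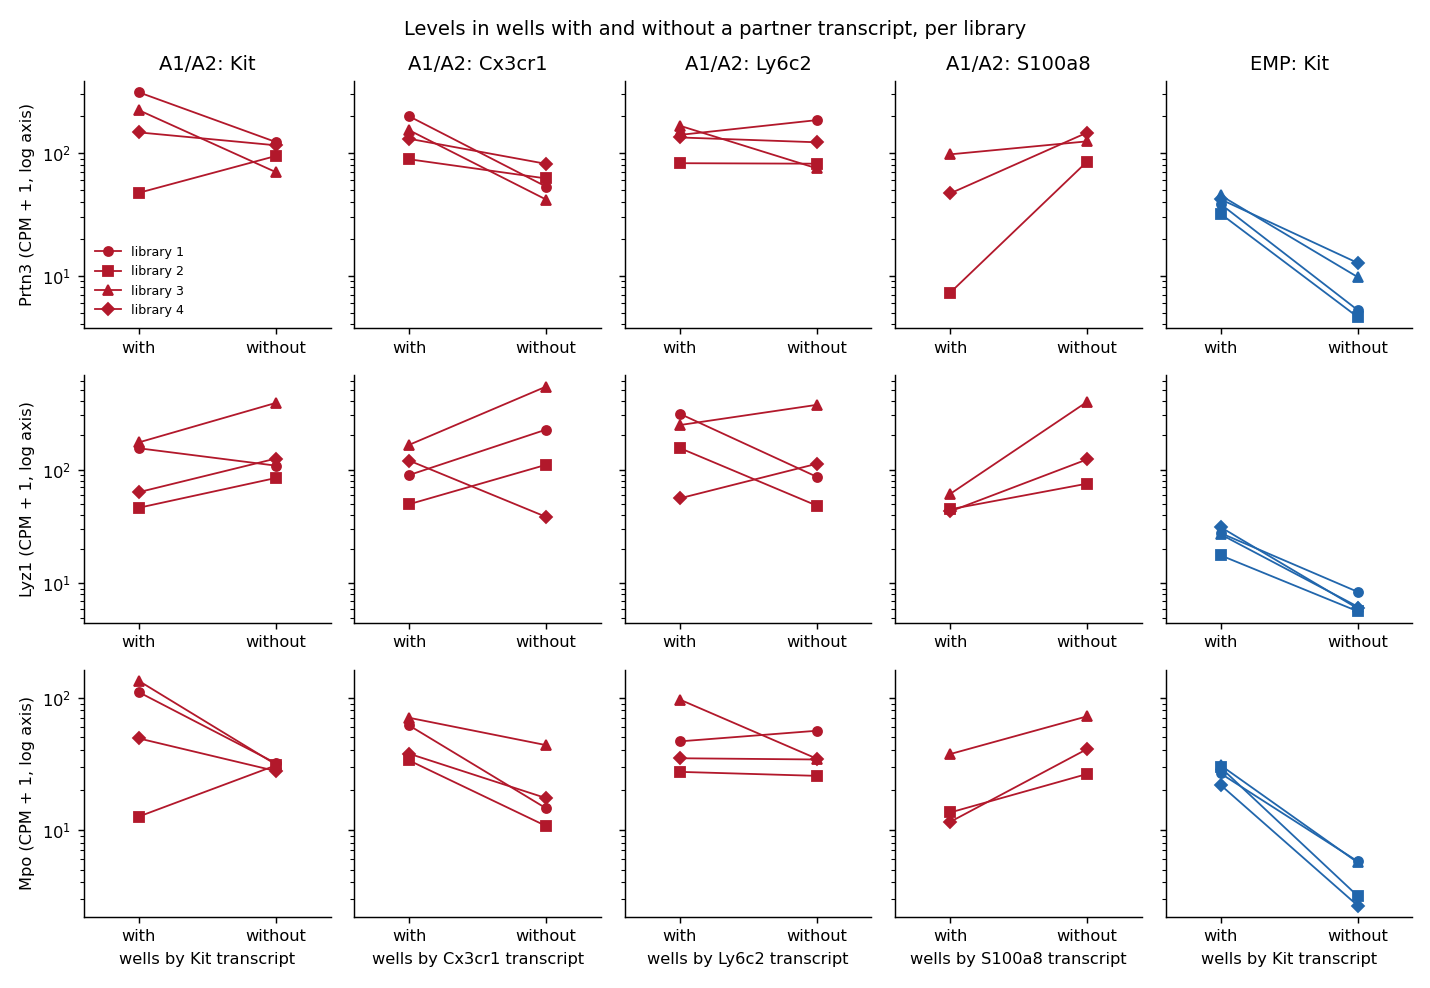
Levels of Prtn3, Lyz1 and Mpo (rows, CPM + 1 on a log axis) in wells with and without a transcript of the partner gene (columns), a line per library. In EMP libraries all 3 genes lie lower without Kit, and in A1/A2 libraries Mpo and Prtn3 lie lower without Cx3cr1 while the lines of Lyz1 cross.

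Kit and Cx3cr1 together gave 4 classes of A1/A2 wells. The 43 wells with both held Mpo in 69.8%, Prtn3 in 79.1% and Lyz1 in 72.1% of cases, at median totals of 46585 to 70264 over the libraries. The 153 wells with Cx3cr1 alone held them in 41.2, 61.4 and 62.7% of cases, at 28869 to 37951 transcripts. The 30 wells with Kit alone held them in 13.3, 30.0 and 30.0%, and the 342 wells with neither in 7.31, 16.1 and 21.9%, at 2312 to 3923 transcripts. Background A1/A2 wells, at a median total of 4181, held them in 9.63, 21.5 and 16.3% of cases. These shares were not brought to equal depth. Per transcript read, wells with neither were at 11.7 ± 3.21 CPM of Mpo, 52.5 ± 31.2 of Prtn3 and 212 ± 267 of Lyz1 (SD, n = 4). Background A1/A2 wells pooled were at 6.81, 15.4 and 12.3 CPM. Wells with both transcripts held 20.6% of all A1/A2 transcripts on average and 39.3 ± 19.9% of those of Mpo. In EMP libraries 246 wells held Kit alone, 24 held both, 7 held Cx3cr1 alone and 378 neither. Wells with neither held Mpo in 6.08%, Prtn3 in 7.14% and Lyz1 in 7.41% of cases at median totals of 5847 to 16817. They were at 3.03 ± 1.53 CPM of Mpo, 6.42 ± 4.12 of Prtn3 and 4.68 ± 0.86 of Lyz1 (SD, n = 4). Background EMP wells pooled were at 2.71, 4.11 and 5.32 CPM.

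The wells with Cx3cr1 and no Kit were compared directly with the wells with Kit and no Cx3cr1, as stand-ins for A2 and A1 cells. Prtn3 was at 154, 104, 95.2 and 124 CPM with Cx3cr1 alone, against 114, 3.65, 81.7 and 43.8 CPM with Kit alone. It was higher in 4 of 4 libraries, by 1.17 ± 0.50 on the log2 scale, which did not pass (edgeR quasi-likelihood test, adjusted p 0.261, with 6.27% of 8674 genes passing). Mpo was at 38.6, 41.2, 41.2 and 30.7 CPM with Cx3cr1 alone, against 19.0, 0, 104 and 12.5 CPM with Kit alone (0.18 ± 0.84, adjusted p 0.938). The Kit sums came from 4 to 10 wells a library and held 0 to 37 Mpo transcripts. Without library 3, which held the 37, Mpo was at 2.48 (adjusted p 0.037) and Prtn3 at 1.91 (adjusted p 9.0e-05). Neither passed in any other fit that left out 1 library. Lyz1 was at 119, 47.5, 212 and 159 CPM with Cx3cr1 alone, against 1445, 3.65, 287 and 31.3 CPM with Kit alone, and gave no call (-0.56 ± 1.33, adjusted p 0.878). Without library 2 Mpo was at -0.51, and without library 1 Lyz1 was at 0.67, so both directions rested on 1 library.

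None of the 3 members passed between wells with and without Ly6c2 (edgeR quasi-likelihood test, adjusted p 0.9995 for each, 0.131% of 9913 genes passing). Lyz1 was at 309, 154, 245 and 54.8 CPM with Ly6c2, against 85.5, 47.3, 370 and 111 CPM without it, so that libraries 1 and 2 were higher and libraries 3 and 4 lower. The log2 fold changes were 0.52 ± 0.71 for Lyz1, 0.48 ± 0.27 for Mpo and 0.25 ± 0.23 for Prtn3. Without library 3 Mpo was at -0.05 and Prtn3 at -0.08, the other direction. Averaged over all draws of 5000 transcripts, where 1.49 to 9.58 wells a library were expected to hold Ly6c2, Lyz1 was at 1825, 2576, 2545 and 17.2 CPM with Ly6c2, against 151, 32.4, 736 and 102 CPM without it. Prtn3 was then at 44.0 ± 15.3 CPM with Ly6c2 and 93.3 ± 22.4 without it, and Mpo at 23.0 ± 8.43 with Ly6c2 and 32.7 ± 8.04 without it (SD, n = 4), lower with Ly6c2 in 4 of 4 libraries for both. These values at equal depth carry no test.

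Wells with S100a8 held less Lyz1 and Mpo than wells without it. A1/A2 libraries 2 to 4 had enough of them, and library 1 had 0. Lyz1 was at 43.8, 60.1 and 41.9 CPM with S100a8 in libraries 2, 3 and 4, against 74.3, 394 and 122 CPM without it, lower in 3 of 3 (log2 fold change -2.04 ± 0.27, edgeR quasi-likelihood test, adjusted p 0.0018). Of 9739 genes, 1.42% passed and 0.647% as lower. Mpo was at 12.5, 36.4 and 10.5 CPM with S100a8, against 25.4, 71.2 and 39.8 CPM without it, lower in 3 of 3 (-1.30 ± 0.30, adjusted p 0.016). Prtn3 was at 6.25, 96.5 and 45.8 CPM with S100a8, against 84.2, 123 and 146 CPM without it, lower in 3 of 3 without passing (-1.13 ± 0.36, adjusted p 0.332). Without library 3, Lyz1 was at -1.38 (adjusted p 0.012) and Prtn3 at -1.88 (adjusted p 0.00043). Prtn3 passed in no other fit that left out 1 library. Mpo's call was lost without library 2, 3 or 4 in turn, at -1.32 (adjusted p 0.0501), -1.75 (adjusted p 0.122) and -0.98 (adjusted p 0.116). Without the library block neither Lyz1 nor Mpo passed. The neutrophil list, which holds S100a8 itself, summed to 364 to 735 CPM with S100a8 and 86.3 to 134 without it. Endoderm markers summed to 10333 to 14667 CPM with S100a8 and 6473 to 11462 without it. Without endoderm-rich wells Lyz1 was at -1.62 ± 0.26 (adjusted p 1.7e-07), Prtn3 at -1.09 ± 0.26 (adjusted p 0.0040) and Mpo at -1.15 ± 0.40 with its call lost (adjusted p 0.211). The monocyte list summed to 18.5 to 56.4 CPM with S100a8 and 63.7 to 137 without it, and erythroid markers to 1094 to 15907 CPM with S100a8 and 381 to 7379 without it. The part of the neutrophil, monocyte and erythroid markers in the difference was not tested.

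In EMP libraries the split by Cx3cr1 rested on 31 wells. Mpo was at 22.3, 69.4, 55.5 and 2.24 CPM with Cx3cr1, against 18.2, 9.85, 17.7 and 17.6 CPM without it. Prtn3 was at 47.8, 44.9, 101 and 4.47 CPM with Cx3cr1, against 24.2, 14.6, 24.1 and 37.5 CPM without it. Both were higher with Cx3cr1 in libraries 1 to 3 and lower in library 4. Lyz1 was at 38.2, 22.4, 20.5 and 11.2 CPM with Cx3cr1, against 18.9, 9.63, 20.1 and 25.4 CPM without it, again lower in library 4 alone. No gene passed (edgeR quasi-likelihood test, 0 or 0.0% of 10503, with 349 at an unadjusted p below 0.05, and 0 with DESeq2's size factors). Without library 4, which went the other way, Mpo was at 1.78 (adjusted p 0.011) and Prtn3 at 1.67 (adjusted p 1.6e-05). Neither passed in any other fit that left out 1 library, so these values cannot test the direction.

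**Figure D4:**
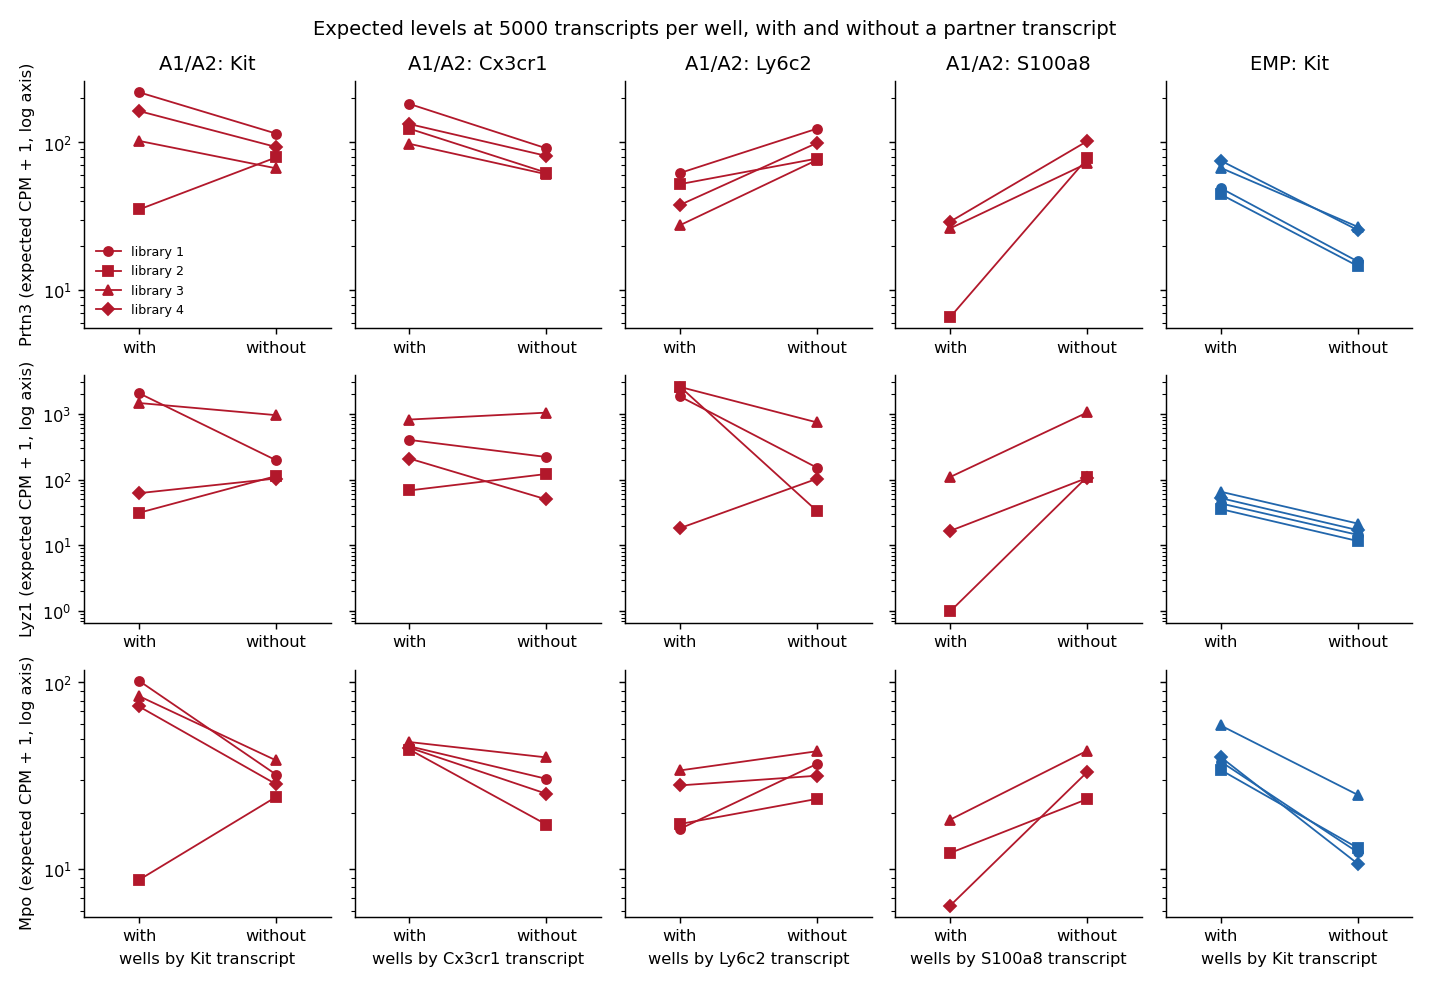
Expected levels of Prtn3, Lyz1 and Mpo (rows, CPM + 1 on a log axis) when each well of at least 5000 transcripts is brought to 5000, in wells with and without a partner transcript (columns), a line per library with at least 1 expected partner well. Kit keeps its order for all 3 genes in EMP libraries, and Ly6c2 wells of A1/A2 libraries 1 to 3 reach 1825 to 2576 CPM of Lyz1.

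Mpo and Prtn3 often shared a well. In A1/A2 libraries 97 wells held both, 25 Mpo without Prtn3 and 95 Prtn3 without Mpo, and in EMP libraries 74 held both, 54 Mpo without Prtn3 and 79 Prtn3 without Mpo. Of Mpo wells, 80.2 ± 11.1% in A1/A2 and 58.7 ± 18.3% in EMP also held Prtn3 (SD, n = 4 each). At 5000 transcripts a well, Prtn3 was expected in 60.0 ± 9.68% of A1/A2 wells with Mpo and 20.9 ± 4.96% of those without it. In EMP wells the same shares were 36.9 ± 8.87% with Mpo and 7.63 ± 2.23% without it. No well held all of Mpo, Prtn3, Elane and Ctsg (0 in each group), and 3 A1/A2 wells and 4 EMP wells held 3 of the 4.

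The balance of the 2 genes was compared per library. For each Mpo transcript there were 3.30, 3.24, 1.87 and 3.70 Prtn3 transcripts in A1/A2 libraries, against 1.40, 1.12, 1.51 and 2.13 in EMP libraries. A1/A2 library 3 fell below EMP library 4, and the exact two-sided permutation p was 0.0571 (0.0857 adjusted over the 3 ratios examined, which were chosen after their values were seen). The share of Mpo wells with Prtn3 had an exact permutation p of 0.114.

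Much of Lyz1 in the A1/A2 libraries lay in wells with neither Mpo nor Prtn3. Wells without Mpo or Prtn3 held 63.9, 62.8, 66.2 and 31.7% of Lyz1 transcripts in A1/A2 libraries, against 12.8, 39.3, 28.6 and 21.5% in EMP libraries (exact permutation p = 0.0571, adjusted 0.0857). A1/A2 library 4 was the low one and lay below EMP library 2. Those wells held 24.7 ± 8.03% of all transcripts in A1/A2 and 52.0 ± 8.94% in EMP. Median totals per library were 31602 to 45930 in A1/A2 wells with Mpo or Prtn3 and 2467 to 4003 in those without, and 27671 to 35278 in EMP wells with them and 9658 to 16436 in those without. The classes rest on detection, which depends on depth, and levels in them were not brought to equal depth. Lyz1 was at 78.8 ± 39.6 CPM in A1/A2 wells with Mpo or Prtn3 and 381 ± 340 in those without. In EMP it was at 28.7 ± 10.2 CPM in wells with Mpo or Prtn3 and 8.52 ± 3.49 in those without. Wells with Ly6c2 or Ccr2, the chemokine receptor of inflammatory monocytes, held 46.1 ± 18.1% of Lyz1 transcripts in A1/A2 and 13.2 ± 7.03% in EMP.

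The A1/A2 wells with the most Lyz1 differed from those with the most Mpo. The 12 A1/A2 wells with the most Lyz1, 3 from each library, held 13 to 119 Lyz1 transcripts at totals of only 3375 to 9169. Of these 12, 9 held neither Mpo nor Prtn3, 7 held Ly6c2 or Ccr2, 6 held Cx3cr1, 12 held Csf1r, the receptor of macrophage growth factor, and 0 held S100a8. The 12 A1/A2 wells with the most Mpo held 8 to 49 Mpo transcripts at totals of 33915 to 139393, and 12 held Prtn3, 11 Cx3cr1, 5 Kit and 0 S100a8. Single wells weighed on the library sums of Lyz1. The highest well gave 25.2, 33.3, 14.4 and 22.7% of all Lyz1 transcripts in A1/A2 libraries, against 7.45, 10.7, 6.67 and 8.60% in EMP libraries.

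**Figure D5:**
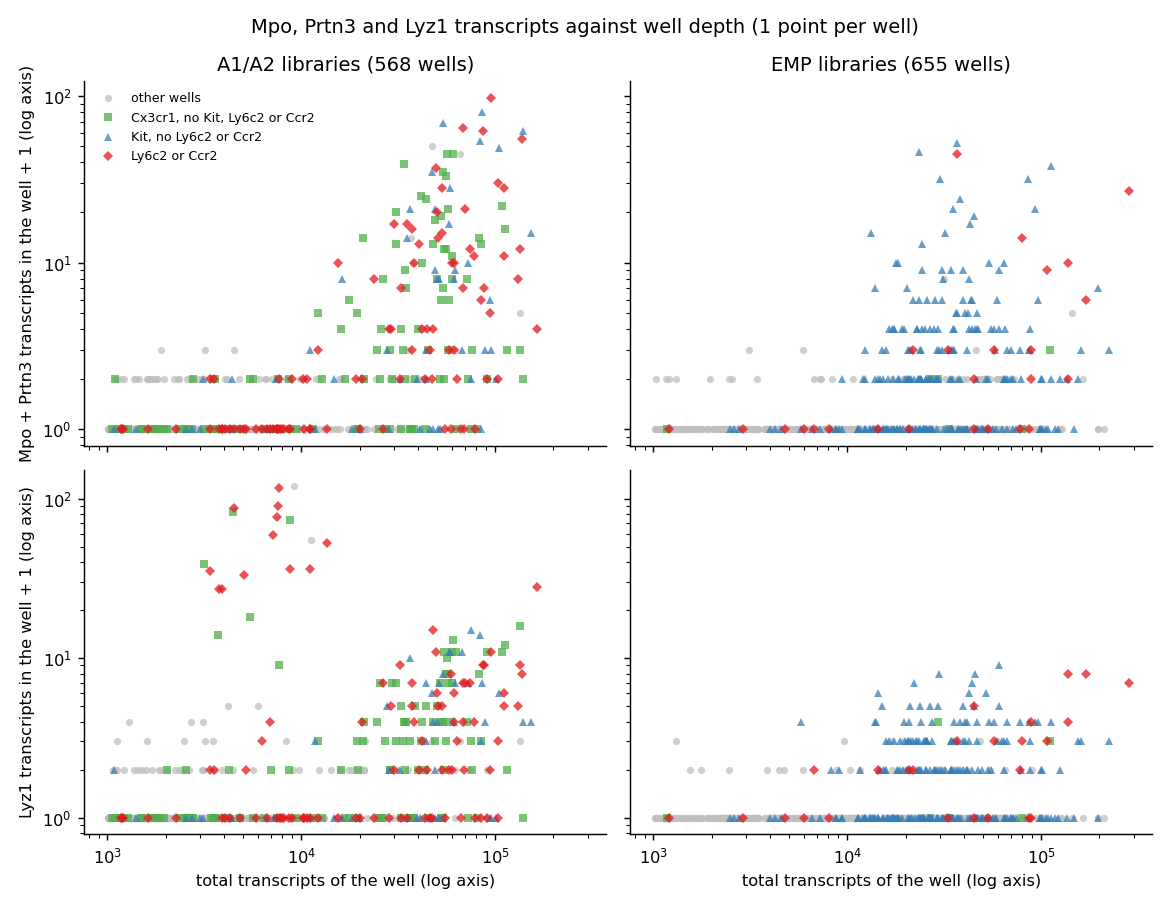
Mpo and Prtn3 transcripts together (top) and Lyz1 transcripts (bottom) in each kept well against its total transcripts (both log axes, 1 added to the counts), for A1/A2 wells (left, n = 568) and EMP wells (right, n = 655), coloured by the partner transcripts they hold. In A1/A2 wells the highest Lyz1 counts lie at totals of 3375 to 9169, and the 12 highest wells for Mpo at totals of 33915 or more.

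The genes whose counts per transcript read were most like those of Mpo, Prtn3, Elane and Ctsg together over wells were ranked by the median Pearson correlation of log2(transcripts per 10000 + 1) over 4 libraries (70 to 84 A1/A2 wells and 109 to 143 EMP wells a library). In A1/A2 wells these were Cd34, a sialomucin of progenitors (median r 0.64 over 10023 genes), Ptgs1, cyclooxygenase 1 (0.59), Plppr3 (0.59), the cyclin gene Ccnd2 (0.59) and the actin regulator Coro2a (0.58). Plppr3 is the gene next to Prtn3 on its other side. In EMP wells they were Rgs18 (0.63), Rac2 (0.62), Coro2a (0.60), Myo1g (0.57) and Coro1a (0.57). Kit had a median r of 0.16 in A1/A2 wells and 0.40 in EMP wells, Cx3cr1 of 0.34 in A1/A2 and 0.09 in EMP, and Lyz1 of 0.08 in A1/A2 and 0.25 in EMP. These correlations share the wells and their depth and are given as descriptions.

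The wider set of granule genes was followed between A1/A2 and EMP libraries. Of all genes tested, 17.3% were higher and 15.4% lower in A1/A2, and counts in the lists stand beside these shares. Of 8 genes for storage and processing, 3 were higher, 1 (Cd63) was lower and the median log2 fold change was 0.13, against -0.02 over all genes tested. The scavenger protein gene Cd68 was at 29.4 ± 6.30 CPM in A1/A2 and 7.08 ± 1.64 in EMP (log2 fold change 2.04 ± 0.21, adjusted p 3.1e-05), and the lysosomal glucuronidase gene Gusb at 150 ± 22.1 CPM in A1/A2 and 82.0 ± 16.0 in EMP. Of 7 protease inhibitor genes, 4 were tested, 2 were higher and 1 (Serpinb6a) was lower. Slpi, which inhibits elastase and cathepsin G, was at 7.79 ± 4.42 CPM in A1/A2 and 0.289 ± 0.323 in EMP (4.48 ± 0.64, adjusted p 0.00041). It was at 0.21, 0.194, 0.751 and 0 CPM in EMP libraries 1 to 4. There 3 transcripts come to 0.554 to 0.772 CPM, so the size of its fold change is imprecise. Cst3, which inhibits cysteine cathepsins, was at 284 ± 57.7 CPM in A1/A2 and 133 ± 14.3 in EMP.

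Of 10 regulators of granule genes, 8 were tested, 5 were higher (Cebpa, Cebpb, Spi1, Irf8 and Klf4) and Myb was lower, with a median of 1.06. Irf8, which favours monocytes over granulocytes, was at 153 ± 37.5 CPM in A1/A2 and 21.1 ± 6.70 in EMP (2.84 ± 0.24), and Cebpb, which acts in granulocytes under stress, at 89.2 to 138 CPM in A1/A2 and 46.3 to 62.2 in EMP. Cebpe and Gfi1, which act at the promyelocyte stage, did not pass the filter on low counts. Of 10 early granulocyte and monocyte genes, 7 were tested and 7 were higher, with a median of 2.77, among them Igsf6 at 27.5 ± 5.09 CPM in A1/A2 and 1.12 ± 0.483 in EMP, and Plac8 at 211 ± 36.5 CPM in A1/A2 and 38.0 ± 5.92 in EMP. Of 10 genes of specific and gelatinase granules, the 2 tested were the oxidase subunits Cybb (69.5 ± 31.3 CPM in A1/A2 and 2.74 ± 1.31 in EMP) and Cyba (131 ± 15.4 CPM in A1/A2 and 87.4 ± 15.9 in EMP), and both were higher, while Ltf, Camp, Ngp, Lcn2, Mmp8, Mmp9, Chil3 and Cd177 did not pass the filter. None of 10 eosinophil, mast cell and basophil granule genes passed it. Within EMP libraries, wells with Kit had 5 of 9 tested regulators higher and 0 lower (Gfi1, Spi1, Myb, Runx1 and Cbfb), and 6 of 8 storage and processing genes lower. In that contrast 20.4% of all genes were higher and 21.9% lower with Kit. Within A1/A2 libraries, wells with Cx3cr1 had 6 of 8 regulators higher and 0 lower (Cebpb, Spi1, Irf8, Myb, Runx1 and Cbfb), where 16.1% of all genes were higher.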

How the data were processed

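Single cells were sequenced by mCEL-Seq2, which counts 3′ tags with molecular identifiers, and BWA 0.6.2-r126 and Seurat are named in the submitters' processing notes. The build and annotation used, and any rule for shared reads, were not given in the sources used here. Per the file headers, each deposited value belongs to 1 gene in 1 well. The authors deposited them as estimated counts of transcripts, and 100% of them became whole numbers of identifiers (tolerance 1e-06) when a correction for collisions among 4096 identifiers was undone. For A1/A2 libraries 1 to 4, 165, 175, 160 and 189 wells were also deposited in a combined set, with the same counts. The EMP wells were not checked in this way. Counts were rounded to whole numbers before testing. The 7 genes, the gene and marker lists and the tests were chosen with earlier results of these data known. The text names members and the 4 partner genes, from each granule list the first and second by p among those passing, and 5 genes by likeness in each group. Other list genes spell out a count and, like pairs, ratios and the highest wells, were chosen after values were seen.

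Wells with at least 1000 transcripts were summed per library, and in wells sorted by 1 partner a class needed 5 wells in at least 3 libraries (2 in the alternatives). Cx3cr1 alone against Kit alone needed 1 well a class. The sums were tested with edgeR 4.0.16 (limma 3.58.1, R 4.3.3), with TMM scaling, a filter on low counts, the robust quasi-likelihood test and Benjamini-Hochberg adjustment over all genes at 0.05, checked on simulated data. Library was a block where wells of one library were compared. Shares of wells were expectations over all draws of 1000 or 5000 transcripts, tested by exact permutation over 70 assignments. Alternatives used DESeq2 1.42.0 (its size factors and its Wald test), other minimum totals, no filter, thinned wells, wells left out and libraries left out. Groups came from the labels. The labels do not say what the library numbers share, so numbers were not treated as pairs.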

Additional observations from a re-analysis of the deposited data

Results flagged for a closer look

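Among 48 groups of 4 libraries examined, 3 held a library far from the other 3, where chance gives about 1 in 20. In A1/A2 wells without Kit, Lyz1 was at 385 CPM in library 3 and at 83.4 to 124 CPM in the others. In EMP wells without Cx3cr1, Mpo was at 9.85 CPM in library 2 and at 17.6 to 18.2 CPM in the others. The share of EMP wells expected to hold Lyz1 at 1000 transcripts was 1.18% in library 2 and 2.49 to 2.69% in the others.

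The contrast between wells with and without Kit differed between A1/A2 and EMP libraries for Lyz1, by -2.71 on the log2 scale in a test of the difference itself (edgeR quasi-likelihood test, adjusted p 0.0269). Lyz1 was lower with Kit in 3 of 4 A1/A2 libraries and higher with Kit in 4 of 4 EMP libraries, in wells not brought to equal depth. In the mean over draws at equal depth it was higher with Kit in 2 of 4 A1/A2 libraries and 4 of 4 EMP libraries. Its A1/A2 means were then 895 ± 1010 CPM with Kit and 339 ± 408 without it (SD, n = 4). The difference between the groups was not tested at equal depth. The call was lost in 6 of the 8 fits that each left out 1 library.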

How the results depend on the processing

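The higher levels of Prtn3, Lyz1 and Mpo in A1/A2 kept their direction under every alternative that tested them. When wells were thinned to 1000 transcripts, 112 genes and 1 member (Lyz1, 4.20) passed, and Mpo and Prtn3 did not reach the filter. With 1 draw of 5000 transcripts, 373 genes and 0 members passed for Cx3cr1 in A1/A2, 74 genes for Ly6c2 (2 libraries, 0 genes shared with the fit over 4), 22 genes for Cx3cr1 alone against Kit alone, and 1145 genes and 1 member for Kit in EMP, where Mpo turned to -0.25. Without endoderm-rich wells, 82 genes passed for Kit in A1/A2, 1088 genes and 0 members for Cx3cr1 in A1/A2, 748 genes for Kit in EMP, 46 genes and 1 member (Prtn3, 1.54, from 2 libraries only) for Cx3cr1 in EMP, 319 genes and 0 members for the difference of Kit contrasts, and 354 genes for Cx3cr1 alone against Kit alone. Without wells of S100a8 or S100a9 these were 26 genes for Kit, 2192 genes and 1 member for Cx3cr1, and 137 genes for Cx3cr1 alone against Kit alone. Without wells of Ly6c2 or Ccr2, 2850 genes and 3 members passed between A1/A2 and EMP. The exclusions of endoderm-rich wells, of Ly6c2 or Ccr2 wells and, within libraries, of S100a8 or S100a9 wells were chosen after seeing the data. Without the filter on low counts, 209 genes passed for Kit and 47 for Ly6c2 in A1/A2, 66 for Cx3cr1 in EMP, and 1 member (Prtn3, 1.27) for Cx3cr1 alone against Kit alone. Without thinning, the difference in shares was 10.0 percentage points for Prtn3 and 11.3 for Lyz1, and neither passed. The cause was not tested in any of these cases. Fewer counts were left by thinning and by leaving out wells.

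Deviations from the group means of same-numbered libraries correlated at r = 0.233, 0.414, -0.0225 and 0.228 for numbers 1 to 4. In 3 of 4 numbers both libraries correlated best with each other, a hint of pairing from the data and not from the design. With the library number as a replicate block, 4736 genes passed between A1/A2 and EMP, 3624 of them shared with the fit without it, and 3 members did, at 1.21 for Mpo, 2.15 for Prtn3 and 2.90 for Lyz1. Without the replicate block within libraries, 0 genes passed for Kit and 0 for Ly6c2 in A1/A2, 4 genes and 0 members for S100a8 (Lyz1 at -1.97, Mpo at -1.06), and 1 member for Cx3cr1, with Mpo at 1.23 (adjusted p 0.0842).

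Leaving out 1 library at a time gave 2596 to 4087 genes and 3 members in each fit for A1/A2 against EMP. In A1/A2 it gave 18 to 110 genes and 0 to 1 members for Kit, 2471 to 3103 and 2 to 3 for Cx3cr1, 12 to 18 and 0 for Ly6c2, and 54 to 294 and 1 to 2 for S100a8. In EMP it gave 3580 to 4247 genes and 3 members for Kit, and 0 to 212 and 0 to 2 for Cx3cr1. The difference of Kit contrasts gave 542 to 1191 genes and 0 to 1 members, and Cx3cr1 alone against Kit alone 339 to 422 and 0 to 2. The difference in shares ranged over 0.257 to 0.941 percentage points for Mpo, 3.83 to 4.79 for Prtn3 and 5.59 to 8.42 for Lyz1. The single draw of 5000 was not run for Kit and S100a8 in A1/A2, for Cx3cr1 in EMP or for the difference of Kit contrasts, where too few libraries had both sums. A share was tested only where the mean of a group reached 1%, so the shares of Elane, Ctsg and Ms4a3 were not tested.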
